A study of Mus musculus with 29 samples.

Results

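Of the genes measured in cultured mouse CD4 T cells, 9 were taken because their transcript levels lay far apart between cells cultured with and without the cytokine transforming growth factor beta (TGF-beta). They are Camk2n1, Spsb1, Nlrp6, Kit and Stx1a, which were higher with TGF-beta (5 genes), and Tgm2, Nrn1, Plac8 and Podnl1, which were lower with it (4 genes), out of 54532 genes listed in the cell-type table and 55421 in the Smad guide table. The members were chosen by their levels in Treg and Th0 cells, so those levels are given below as a description with no test. Levels in the 8 libraries with guide RNAs against Smad2 and Smad3 and their controls were not used to choose them. The tests are on those libraries. Earlier results of these data were known when the choice was made, so the tests may not be independent of it.

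TGF-beta binds a pair of receptor kinases that phosphorylate the transcription factors Smad2 and Smad3, which join Smad4, enter the nucleus and raise or lower the transcription of target genes. In naive CD4 T cells that are activated and given IL-2, TGF-beta induces Foxp3 and the regulatory T (Treg) programme, and it restrains the effector programme that activation alone would bring. Smad2 and Smad3 are closely related, and which of them a given target needs differs between genes and cell types.

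Treg cells came from splenic naive CD4 T cells of C57BL/6 mice after 5 days in 15 ng/ml IL-2 plus 10 ng/ml of human TGF-beta, and further Treg cultures of that kind carried guide RNAs against both Smads (sgSmad2/3), against Smad3 (sgSmad3) or against Smad2 (sgSmad2). They were set against Th0 cells (15 ng/ml IL-2 and no TGF-beta, also 5 days), freshly taken naive CD4 T cells, and, for the guides, Treg cultures whose labels name no guide (control). There were 3 libraries each of Treg, Th0 and naive cells and 2 each of sgSmad2/3, sgSmad3, sgSmad2 and control, 17 of the 29 samples of the series. The labels give neither how the guides or the nuclease were delivered, nor the share of cells edited, nor whether replicates came from separate animals, so the spread behind each p-value may be only technical.

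Libraries were made from polyadenylated RNA with a kit that sequences tags near the 3′ end of transcripts. By totals worked back from the deposited values, they held 797612 to 1551478 counted reads in the cell-type experiment and 1294583 to 1602297 in the Smad experiment. Levels are given in CPM, read counts scaled to a common library total. The authors named the values TPM, and they are read here as CPM, in whole numbers in the Smad table. CD4 T cell markers (Cd3e, Cd3d, Cd4, Trac and Cd28) were detected 5 of 5 in every group, with summed levels of 1669 to 3219 CPM. The libraries labelled with a Smad guide did not all have less of the targeted transcript. Smad2 had 13 and 18 CPM in sgSmad2/3, 12 and 24 CPM in sgSmad2, 25 and 30 CPM in sgSmad3, and 37 and 29 CPM in control libraries. Smad3 had 41 and 37 CPM in sgSmad2/3, 26 and 25 CPM in sgSmad3, 44 and 56 CPM in sgSmad2, and 30 and 34 CPM in control libraries. Neither gene passed the test in the groups aimed at it (limma adjusted p = 0.22 and 1.0 for Smad2, 0.70 and 0.63 for Smad3, each for sgSmad2/3 and then the single guide). Where the guides cut is not given in the sources used here, and 3′ tags count a transcript near its end, so these levels do not check whether protein was lost. The groups are called by their labels throughout.

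The members lie on 6 chromosomes and all are protein coding. On the build GRCm38.p6 Camk2n1 (ENSMUSG00000046447) is at chr4:138455148-138460126, Spsb1 (ENSMUSG00000039911) at chr4:149896283-149955006, Nlrp6 (ENSMUSG00000038745) at chr7:140920902-140929192, Kit (ENSMUSG00000005672) at chr5:75574987-75656722 and Stx1a (ENSMUSG00000007207) at chr5:135023482-135051100. Tgm2 (ENSMUSG00000037820) is at chr2:158116405-158146392, Nrn1 (ENSMUSG00000039114) at chr13:36725622-36734477, Plac8 (ENSMUSG00000029322) at chr5:100551589-100572253 and Podnl1 (ENSMUSG00000012889) at chr8:84125928-84142991. By the RefSeq annotation 3 members share ground with another gene. Gm13070 within the bounds of Spsb1 and Gm30177 within those of Nrn1 were listed at 0 in all 17 libraries. Cc2d1a, which overlaps Podnl1, had 6.20 to 14.7 CPM in the cell-type libraries and 7 to 11 CPM in the Smad libraries.

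The sequence before the start of transcription was read for 3 of the genes that were high with TGF-beta, to show what the window that Smad complexes could reach holds. RefSeq windows on GRCm38.p6 were to hand for 5 of the 9 members (Spsb1, Kit, Stx1a, Nlrp6 and Plac8). The 250 bases upstream of the start are printed 5′ to 3′ on the gene's strand, with capitals for the GC-rich Smad motif GGCGC on either strand.
Spsb1, chr4:149955007-149955256, minus strand: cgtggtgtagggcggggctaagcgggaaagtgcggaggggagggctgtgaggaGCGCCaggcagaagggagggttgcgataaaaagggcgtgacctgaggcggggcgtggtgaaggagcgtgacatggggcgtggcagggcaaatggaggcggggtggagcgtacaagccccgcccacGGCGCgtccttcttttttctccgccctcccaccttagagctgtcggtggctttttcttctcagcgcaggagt
Kit, chr5:75574737-75574986, plus strand: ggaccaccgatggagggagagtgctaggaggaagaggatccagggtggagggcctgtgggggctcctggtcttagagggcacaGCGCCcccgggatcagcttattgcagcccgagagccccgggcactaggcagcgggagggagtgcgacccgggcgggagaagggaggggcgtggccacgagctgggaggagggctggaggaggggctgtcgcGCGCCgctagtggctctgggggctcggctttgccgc
Nlrp6, chr7:140920652-140920901, plus strand: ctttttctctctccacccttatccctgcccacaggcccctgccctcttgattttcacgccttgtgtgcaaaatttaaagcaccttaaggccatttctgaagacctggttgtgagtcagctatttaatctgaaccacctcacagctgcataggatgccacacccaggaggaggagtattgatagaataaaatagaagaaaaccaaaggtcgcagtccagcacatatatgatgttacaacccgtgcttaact
The Spsb1 window held the GC-rich motif 2 times, with first bases 197 and 72 bases before the start, and the Kit window 2 times, 167 and 36 bases before it. The windows of Nlrp6, Stx1a and Plac8 did not hold it. None of the 5 members' windows held the short Smad element CAGAC, the palindromic Smad site GTCTAGAC or the interferon element GAAANNGAA. No motif contains another. Of 32851 promoter windows of this length in the table, 32.0% held GGCGC, 42.2% CAGAC, 0.167% GTCTAGAC and 7.13% GAAANNGAA. G and C made up 64.4% of the Spsb1 window, 70.8% of the Kit window and 45.6% of the Nlrp6 window, against a median of 52.4% over all windows.

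Among the 5 genes high with TGF-beta, Camk2n1 and Nlrp6 were nearly silent in both other cell types, whereas Stx1a was as high in naive as in Treg cells. Camk2n1, which encodes a small protein that binds and inhibits calcium/calmodulin-dependent kinase II, had 75.4, 136 and 134 CPM in Treg libraries, against 2.12, 2.22 and 1.22 CPM in Th0 and 1.25, 1.24 and 1.17 CPM in naive libraries. These are 418 reads in Treg, against 5 reads in Th0 and 3 reads in naive cells. The rate of reads was 63.6 times that in Th0, the difference by which the gene was chosen, so no interval is given. It was 97.9 times that in naive cells (95% interval 33.3 to 477). The exact intervals here and below cover counting error only, not the spread between libraries or the choice of the genes. Nlrp6, an inflammasome sensor best known from the intestinal epithelium, had 21.5, 36.7 and 41.1 CPM in Treg libraries, against 0 reads in all 3 Th0 and all 3 naive libraries. A count of 0 allows up to 3 reads, which is 3.67 CPM in the shallowest Th0 and 3.76 CPM in the shallowest naive library, so Nlrp6 was at least 9.02-fold higher in Treg than in Th0 and at least 8.81-fold higher than in naive cells.

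Spsb1 ran through 3 levels. The gene encodes a SOCS box adaptor of a ubiquitin ligase, which in mammalian cells is known to promote turnover of the type II TGF-beta receptor. It had 68.9, 87.7 and 56.8 CPM in Treg libraries, against 1.06, 3.33 and 0 CPM in Th0 and 17.6, 12.4 and 21.0 CPM in naive libraries. No 2 of the 3 cell types overlapped: Treg was highest, naive between, and Th0 lowest with 4 reads in all. Kit, the receptor tyrosine kinase for stem cell factor, had 8.61, 24.5 and 16.7 CPM in Treg libraries, against 3.18, 2.22 and 0 CPM in Th0 and 2.51, 2.48 and 2.34 CPM in naive libraries. Its Treg libraries lay above all others at 16.6 ± 7.94 CPM (SD, n = 3), and its Th0 and naive libraries overlapped. Kit also marks mast cells, and 8 of the 9 mast cell and basophil markers were at 0 in every Treg library, where their summed level was 0 to 1.08 CPM. They summed to 1.11 to 2.45 CPM in Th0 libraries and to 6.20 to 13.8 CPM in naive libraries, where 7 were detected. Their part in the Kit levels was not tested.

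Stx1a, a plasma membrane SNARE known from synaptic vesicle release, had 22.6, 26.4 and 32.3 CPM in Treg libraries, against 8.48, 7.77 and 8.57 CPM in Th0 and 26.3, 29.7 and 23.4 CPM in naive libraries. The Treg and naive ranges overlapped, and the ratio of their read rates was 1.03 (0.741 to 1.43). The gap for Stx1a therefore lay between naive and Th0 cells as much as between Treg and Th0 cells. The name of an on or off gene fits Nlrp6 by its reads, at 0 without TGF-beta. It goes against Stx1a, which kept 8.27 ± 0.44 CPM in Th0 cells (SD, n = 3), and against Podnl1 and Plac8, which kept 11.8 ± 2.89 and 15.2 ± 11.5 CPM in Treg cells (SD, n = 3 each). Nrn1 and Tgm2 also kept 6.76 ± 1.60 and 6.18 ± 6.78 CPM in Treg cells, and Spsb1 had 17.0 ± 4.35 CPM in naive cells (SD, n = 3 each).

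Of the 4 genes low with TGF-beta, Tgm2, Nrn1 and Plac8 were low in naive cells too and high in Th0 cells alone. Tgm2, the tissue transglutaminase that cross-links proteins, had 14.0, 2.58 and 1.96 CPM in Treg libraries, against 138, 102 and 96.8 CPM in Th0 and 0, 1.24 and 1.17 CPM in naive libraries. One Treg library, replicate 1, held 13 of the 19 Treg reads, and all 3 Treg libraries lay above the naive ones. Nrn1, which encodes neuritin, a lipid-anchored surface protein known from neurite growth, had 8.61, 5.80 and 5.88 CPM in Treg libraries, against 92.2, 88.8 and 85.7 CPM in Th0 and 6.27, 3.72 and 7.01 CPM in naive libraries. Plac8, a small cysteine-rich protein found in placenta and in immune cells, had 28.0, 11.6 and 5.88 CPM in Treg libraries, against 185, 122 and 168 CPM in Th0 and 17.6, 8.67 and 7.01 CPM in naive libraries. For Nrn1 and Plac8 the Treg and naive libraries overlapped, and Th0 lay above both. Their read rates in Th0 were 15.7 times (9.14 to 29.1) and 14.5 times (9.79 to 22.2) those in naive cells.

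Podnl1, a member of the small leucine-rich proteoglycans of the extracellular matrix, differed from the other 3 by its level in naive cells. It had 8.61, 14.2 and 12.7 CPM in Treg libraries, against 37.1, 46.6 and 41.7 CPM in Th0 and 27.6, 38.4 and 19.9 CPM in naive libraries. Its Treg libraries lay below all others, and its Th0 and naive libraries overlapped. Cc2d1a, which shares ground with it, ran the other way between Treg and Th0 cells (11.6 to 14.7 CPM in Treg and 8.48 to 12.3 CPM in Th0 libraries).

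**Figure D1:**
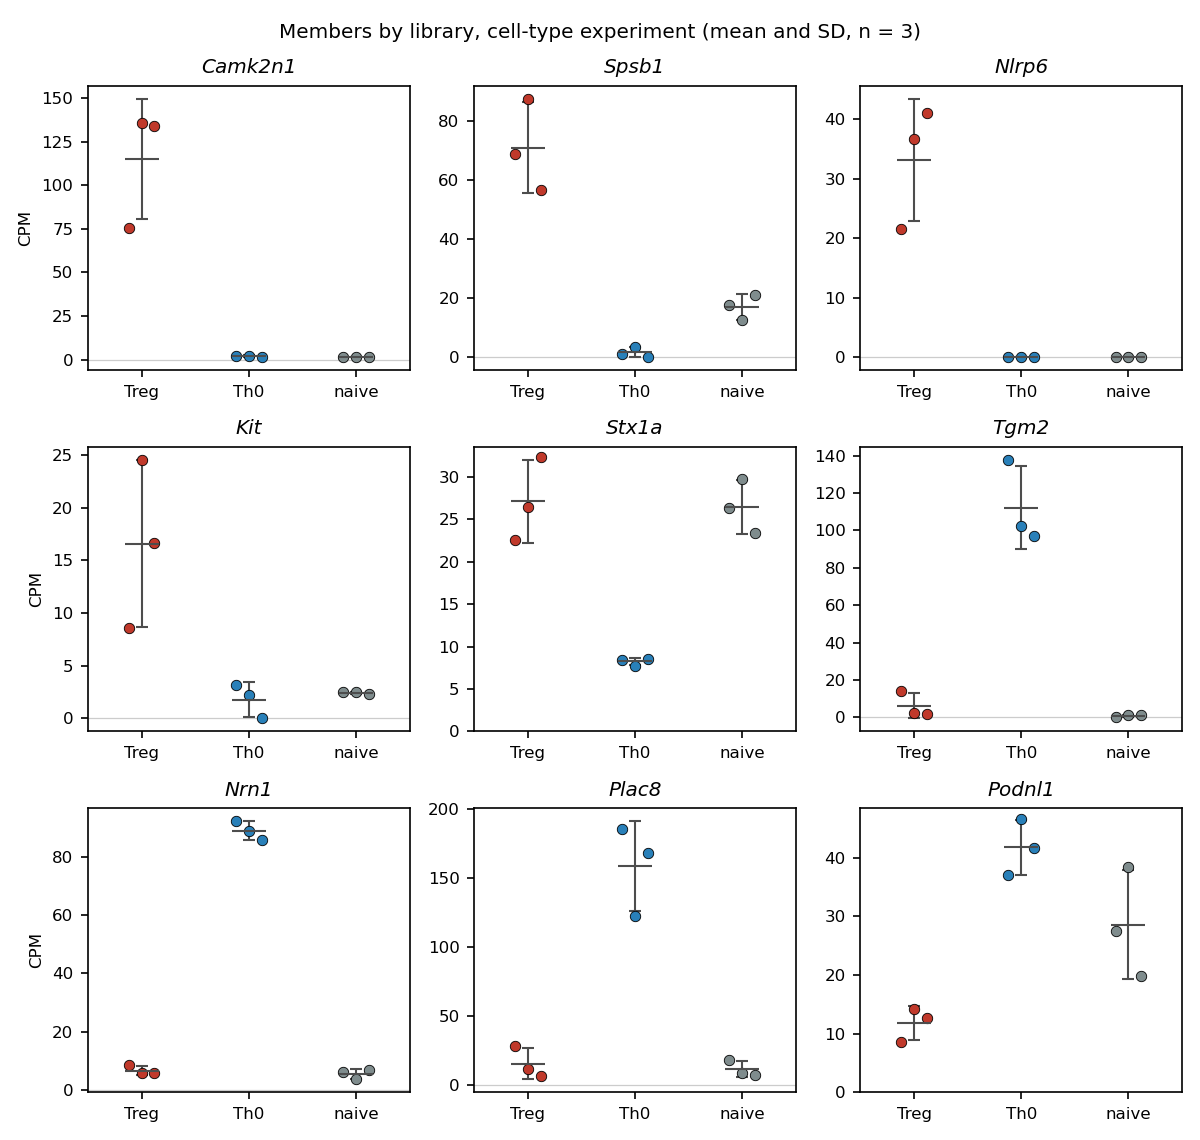
Level of each member in CPM (vertical axis, linear) in every library of Treg, Th0 and naive cells, with 1 point per library, the mean as a dash and the SD as a bar (n = 3). Camk2n1, Nlrp6 and Kit stand up in Treg alone, Tgm2, Nrn1 and Plac8 in Th0 cells, Stx1a dips in Th0, Spsb1 is intermediate in naive cells, and Podnl1 is lowest in Treg.

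Put together, 5 of 9 members had every Treg library above every Th0 library and 4 of 9 every one below, as their choice fixed. Over 14165 genes tested these shares were 10.0% and 11.2%, and limma called 770 genes, 5.44%, between Treg and Th0. Nlrp6, at 0 reads in all Th0 and naive libraries, passed the filter of 1 CPM by its 3 Treg libraries alone. Its place in the counts of Treg against Th0 and against naive cells follows from that. Against naive cells, whose comparisons share the Treg or the Th0 libraries with the one that chose the genes, 5 of 9 members lay wholly higher in Treg (27.0% of all genes) and 1 of 9, Podnl1, wholly lower (21.1%). In Th0 against naive cells 3 of 9, Tgm2, Nrn1 and Plac8, lay wholly higher (26.7% of all genes) and 2 of 9, Spsb1 and Stx1a, wholly lower (21.8%). The naive libraries held more of other blood cells: red cell markers summed to 0 to 5.55 CPM in Treg and Th0 libraries, against 496 to 1172 CPM in naive libraries, and myeloid markers to 0 to 2.15 CPM, against 11.7 to 85.5 CPM in naive libraries. B cell markers summed to 0 to 4.31 CPM in Treg and Th0 libraries, against 4.68 to 76.8 CPM in naive libraries. Among Treg markers, Foxp3 had 82.8 to 91.7 CPM in naive and 8.57 to 13.8 CPM in Th0 libraries. Ikzf2 and Ctla4 were also higher in naive than in Th0 libraries, and Il2ra was lower (64.3 to 84.2 against 1260 to 1360 CPM). The part of other blood cells or of Treg cells in the naive levels was not tested. In bulk RNA, fewer cells with a transcript and less of it per cell cannot be told apart.

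With the guides, the gene-by-gene test called Nlrp6 lower and Podnl1 higher in sgSmad2/3 against control. Over pooled groups it called Camk2n1 and Nlrp6 lower in the 4 libraries with a Smad3 guide against the 4 without, and Podnl1 higher in the 4 with a Smad2 guide against the 4 without. It called no member in sgSmad3 or in sgSmad2 against control. The test was limma on log2(CPM + 1) over 10737 genes with 5 CPM or more in at least 2 libraries, all 4 groups in 1 fit. All 9 members passed this filter, Plac8 by only 2 libraries. The plan set the filter at 1 CPM, which tests 18347 genes, of which 1.59% had equal rounded values within every group, against 0% at 5 CPM. At 1 CPM limma called 0 genes in every guide comparison, with unadjusted p under 0.05 for 1006 to 2355 genes. The filter was raised after that result had been seen, because the fit gave more false calls on simulated data at 1 CPM than at 5 CPM. The simulation gave every gene the same spread beyond counting error, so it does not decide which filter suits these data. None of the guide calls below holds at the planned filter, and none of those on members holds without limma's intensity trend.

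Camk2n1 was low in both groups that carried a Smad3 guide. It had 75 and 78 CPM in sgSmad2/3, 86 and 67 CPM in sgSmad3, 132 and 218 CPM in sgSmad2, and 134 and 212 CPM in control libraries. The 4 libraries with a Smad3 guide all lay below the 4 without one, at 76.5 ± 7.85 CPM, against 174 ± 47.4 CPM (SD, n = 4 each). The log2 change between them was -1.14 (SE 0.17, limma adjusted p = 0.0045), a call made for 0.931% of genes. Limma called 2 of 9 members there, 6 of 9 had an unadjusted p under 0.05 (14.9% of all genes), 2 of 9 lay wholly lower (3.31%) and 0 of 9 wholly higher (3.93%). For Camk2n1 the change for a Smad2 guide was 0.01 (SE 0.17, limma adjusted p = 1.0, 95% interval -0.36 to 0.38). Against control alone the changes were -1.13 (SE 0.25, limma adjusted p = 0.052) in sgSmad2/3 and -1.14 (SE 0.25, limma adjusted p = 0.11) in sgSmad3, neither past the threshold. The call held in 6 of 8 fits that left out 1 library, and was lost without sgSmad2/3 replicate 1 (limma adjusted p = 0.15) or replicate 2 (0.12).

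Nlrp6 was also lowest in the groups with a Smad3 guide. It had 16 and 24 CPM in sgSmad2/3, 23 and 29 CPM in sgSmad3, 43 and 57 CPM in sgSmad2, and 64 and 49 CPM in control libraries. It fell by 1.47 on the log2 scale in sgSmad2/3 against control (SE 0.27, limma adjusted p = 0.015), in a comparison that called 0.522% of genes. With a Smad3 guide present it fell by 1.19 on the log2 scale against its absence (SE 0.19, limma adjusted p = 0.0056), again with no overlap between the 4 and 4 libraries. In sgSmad3 against control the change was -1.09 (SE 0.27, limma adjusted p = 0.18), and in sgSmad2 against control -0.17 (limma adjusted p = 1.0). The call in sgSmad2/3 was lost in 4 of 8 fits without 1 library, those without either sgSmad2/3 library (limma adjusted p = 0.48 without replicate 1 and 0.13 without replicate 2) or either control library (0.23 and 0.083). The call for a Smad3 guide was lost without sgSmad2/3 replicate 1 (limma adjusted p = 0.15) and without sgSmad3 replicate 1 (0.054).

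In sgSmad2/3, Nlrp6 kept 16 and 24 CPM and Camk2n1 75 and 78 CPM. In the other experiment Th0 cells, grown without TGF-beta, had 0 reads of Nlrp6 and 1.85 ± 0.55 CPM of Camk2n1 (SD, n = 3). The 2 tables were made separately, so these levels stand side by side without a test.

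The other 3 genes high with TGF-beta passed no guide test. Spsb1 had 35 and 43 CPM in sgSmad2/3, 66 and 67 CPM in sgSmad3, 54 and 80 CPM in sgSmad2, and 56 and 73 CPM in control libraries. Its sgSmad2/3 libraries lay below all others, yet the change of -0.71 (SE 0.23) had a limma adjusted p of 0.25, and the single guides gave 0.06 and 0.04. Kit had 19 and 31 CPM in sgSmad2/3, 18 and 23 CPM in sgSmad3, 43 and 31 CPM in sgSmad2, and 30 and 38 CPM in control libraries. Its changes against control were -0.46 (SE 0.29, limma adjusted p = 0.59), -0.70 (SE 0.29, adjusted p = 0.39) and 0.11 (adjusted p = 1.0) in that order. Mast cell and basophil markers summed to 0 to 4 CPM in the Smad libraries, with Cpa3, Fcer1a, Cma1, Ms4a2 and Tpsb2 at 0 in all 8. Stx1a had 21 and 27 CPM in sgSmad2/3, 29 and 27 CPM in sgSmad3, 30 and 42 CPM in sgSmad2, and 25 and 31 CPM in control libraries. The sgSmad2 libraries of Stx1a lay above those of sgSmad3 and sgSmad2/3, and each of the 3 guide groups overlapped control. The 95% intervals of its changes against control ran from -0.77 to 0.34 in sgSmad2/3, from -0.55 to 0.56 in sgSmad3 and from -0.21 to 0.89 in sgSmad2.

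**Figure D2:**
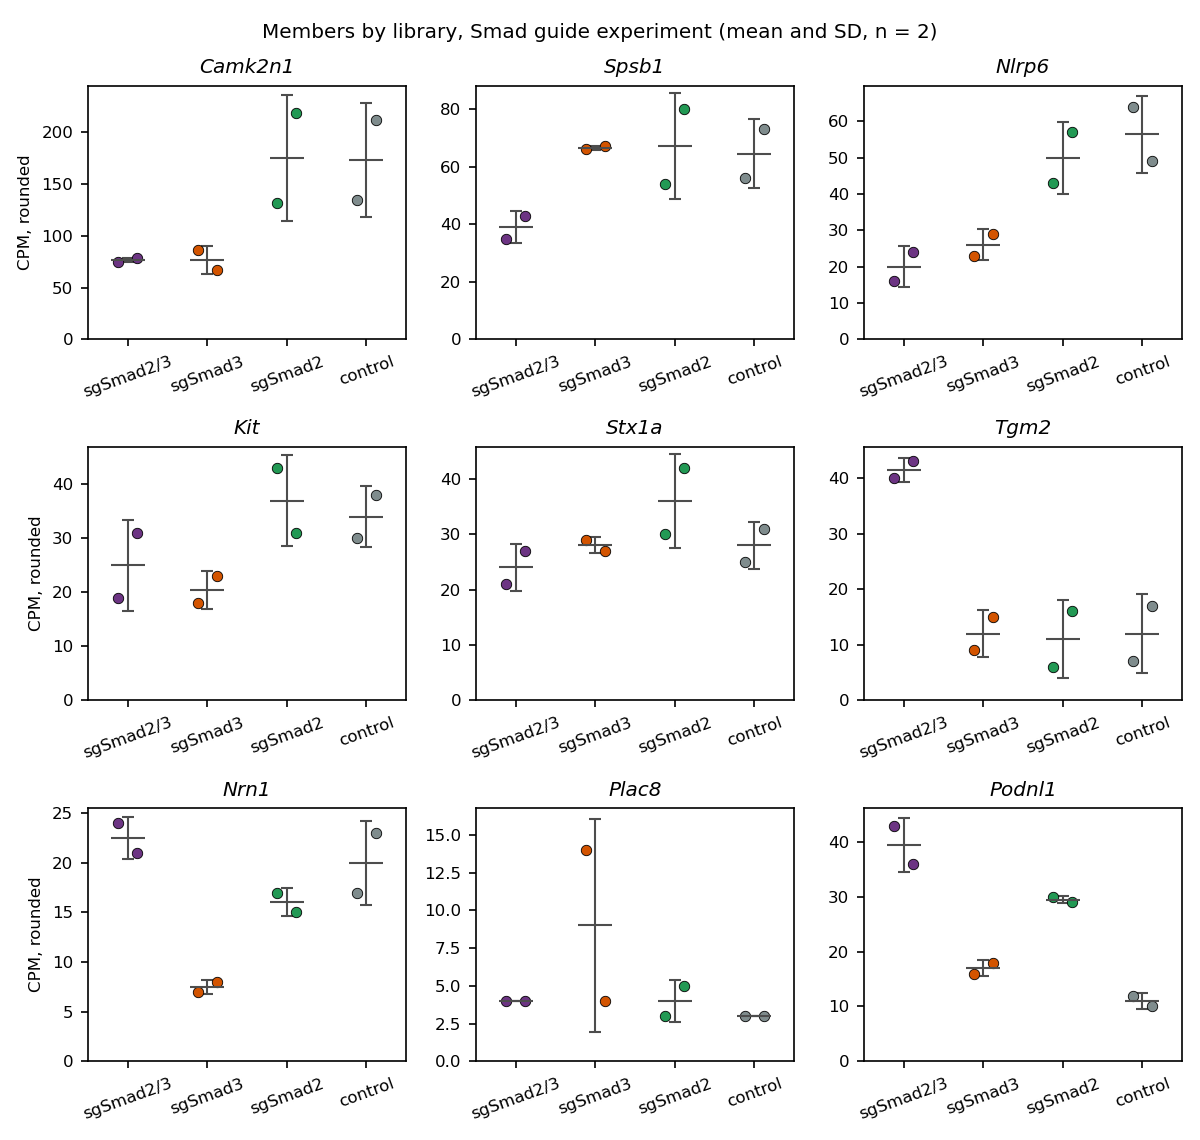
Level of each member in rounded CPM (vertical axis, linear) in every library of the Smad experiment, with 1 point per library, the mean as a dash and the SD as a bar (n = 2). Camk2n1 and Nlrp6 are low in sgSmad2/3 and sgSmad3, Tgm2 is high in sgSmad2/3 alone, Nrn1 is low in sgSmad3 alone, and Podnl1 steps down through sgSmad2/3, sgSmad2, sgSmad3 and control.

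Among the genes low with TGF-beta, Podnl1 was the one that passed. It had 43 and 36 CPM in sgSmad2/3, 16 and 18 CPM in sgSmad3, 30 and 29 CPM in sgSmad2, and 12 and 10 CPM in control libraries. None of the 4 groups overlapped, in the order sgSmad2/3, sgSmad2, sgSmad3 and control. Podnl1 rose by 1.75 on the log2 scale in sgSmad2/3 against control (SE 0.27, limma adjusted p = 0.0051), and with a Smad2 guide present it rose by 1.26 against its absence (SE 0.19, limma adjusted p = 0.010), where limma called 1 of 9 members (0.102% of all genes), 4 of 9 had an unadjusted p under 0.05 (4.77%), 1 of 9 lay wholly higher (1.02%) and 0 of 9 wholly lower (0.875%). In sgSmad2 alone the change was 1.35 (SE 0.27, limma adjusted p = 0.25) and in sgSmad3 alone 0.59 (SE 0.27, adjusted p = 0.43). Its sgSmad2/3 mean of 39.5 CPM stood beside 41.8 CPM in Th0 and 28.6 CPM in naive cells of the other experiment. That comparison crosses the 2 experiments and was not tested. Cc2d1a showed no such rise in sgSmad2/3, at 7 and 9 CPM, against 8 CPM in both control libraries (log2 change -0.01, SE 0.38). The call in sgSmad2/3 was lost without either sgSmad2/3 library (limma adjusted p = 0.29 without replicate 1 and 0.10 without replicate 2) and without control replicate 2 (0.080). The call for a Smad2 guide held in 1 of 8 such fits, the one without sgSmad3 replicate 2 (limma adjusted p = 0.037), and was lost in the other 7, at 0.054 to 0.24.

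Tgm2 had 40 and 43 CPM in sgSmad2/3, 9 and 15 CPM in sgSmad3, 6 and 16 CPM in sgSmad2, and 7 and 17 CPM in control libraries. The sgSmad2/3 libraries lay above all 6 others, and the other 3 groups overlapped. The change against control was 1.82 in sgSmad2/3 (SE 0.44, limma adjusted p = 0.084), 0.08 in sgSmad3 and -0.14 in sgSmad2 (SE 0.44 each). Beyond what both single guides add up to, sgSmad2/3 differed by 1.88 on the log2 scale (SE 0.62, 95% interval 0.57 to 3.20, limma adjusted p = 1.0), which did not pass the test. Tgm2 averaged 41.5 ± 2.12 CPM in sgSmad2/3 (SD, n = 2), and 112 ± 22.3 CPM in Th0 cells of the other experiment (SD, n = 3).

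Nrn1 had 24 and 21 CPM in sgSmad2/3, 7 and 8 CPM in sgSmad3, 17 and 15 CPM in sgSmad2, and 17 and 23 CPM in control libraries. Its sgSmad3 libraries lay below all 6 others, with a change of -1.29 against control (SE 0.31, limma adjusted p = 0.16), whereas sgSmad2/3 stood at 0.17 (SE 0.31, adjusted p = 0.88). Beyond that same sum, sgSmad2/3 differed by 1.76 (SE 0.43, unadjusted p = 0.00090, limma adjusted p = 1.0). In that test limma called 0 of 9 members (0.0% of all genes), and 3 of 9 members and 2.91% of all genes had an unadjusted p under 0.05. Plac8 had 4 and 4 CPM in sgSmad2/3, 14 and 4 CPM in sgSmad3, 3 and 5 CPM in sgSmad2, and 3 and 3 CPM in control libraries. A single library, sgSmad3 replicate 1, set its change of 1.11 in sgSmad3 (SE 0.57, limma adjusted p = 0.48), and the others lay near the 1.87 to 2.32 CPM that 3 reads make.

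**Figure D3:**
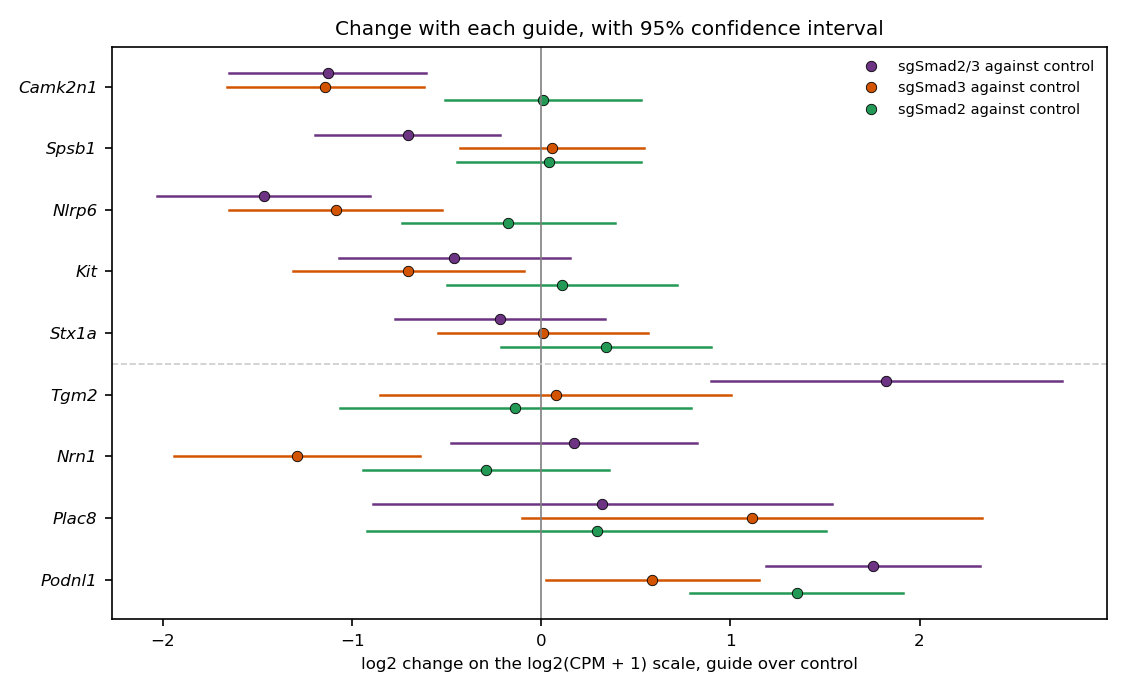
Log2 change of each member on the log2(CPM + 1) scale (horizontal axis) in sgSmad2/3, sgSmad3 and sgSmad2 over control, with 95% confidence intervals from limma; the dashed line parts the 5 genes high with TGF-beta from the 4 low with it. Camk2n1 and Nlrp6 lie near -1.1 to -1.5 in sgSmad2/3 and sgSmad3 and near 0 in sgSmad2, and Podnl1 lies at 1.75, 0.59 and 1.35.

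In sgSmad2/3 all 5 genes high with TGF-beta had a change below 0 and all 4 low with it a change above 0, most of them without passing the test. The median change was -0.71 for the first 5 and 1.04 for the other 4, and 0.04 over all 10737 genes, of which 45.9% were below 0 and 53.9% above. In sgSmad3 the medians were -0.70 (3 of 5 below 0) and 0.33 (3 of 4 above 0), and in sgSmad2 they were 0.04 (1 of 5 below 0) and 0.08 (2 of 4 above 0). Of all genes, 45.8% were below 0 and 54.0% above in sgSmad3, and 47.3% and 52.0% in sgSmad2. Limma called 2 of 9 members in sgSmad2/3 against control (0.522% of all genes), 0 of 9 in sgSmad3 against control (0.0931% of all genes) and 0 of 9 in sgSmad2 against control (0.00931%). At an unadjusted p under 0.05 the counts were 5 of 9 (10.6% of all genes), 5 of 9 (11.3%) and 1 of 9 (3.23%). Without overlap with control, 3 of 9 lay higher (23.4% of all genes) and 3 of 9 lower (17.7%) in sgSmad2/3, 2 of 9 higher (21.4%) and 4 of 9 lower (16.7%) in sgSmad3, and 1 of 9 higher (13.4%) and 0 of 9 lower (11.0%) in sgSmad2. Plac8 was among those higher in sgSmad2/3 (4 and 4 CPM) and in sgSmad3 (14 and 4 CPM). Its control libraries had 3 and 3 CPM, so its place there rests on values near the floor. Between sgSmad3 and sgSmad2 limma called 0 of 9 members (0.0466% of all genes), with 5 of 9 at an unadjusted p under 0.05 (9.13%). That comparison gave Camk2n1 -1.15 (SE 0.25, limma adjusted p = 0.19), Nlrp6 -0.91 (0.31), Kit -0.81 (0.42), Nrn1 -1.0 (0.36) and Podnl1 -0.76 (0.42), with limma adjusted p in parentheses. Camk2n1 and Nlrp6 were thus called for a Smad3 guide and Podnl1 for a Smad2 guide, while the direct test of sgSmad3 against sgSmad2 called none of them.

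**Figure D4:**
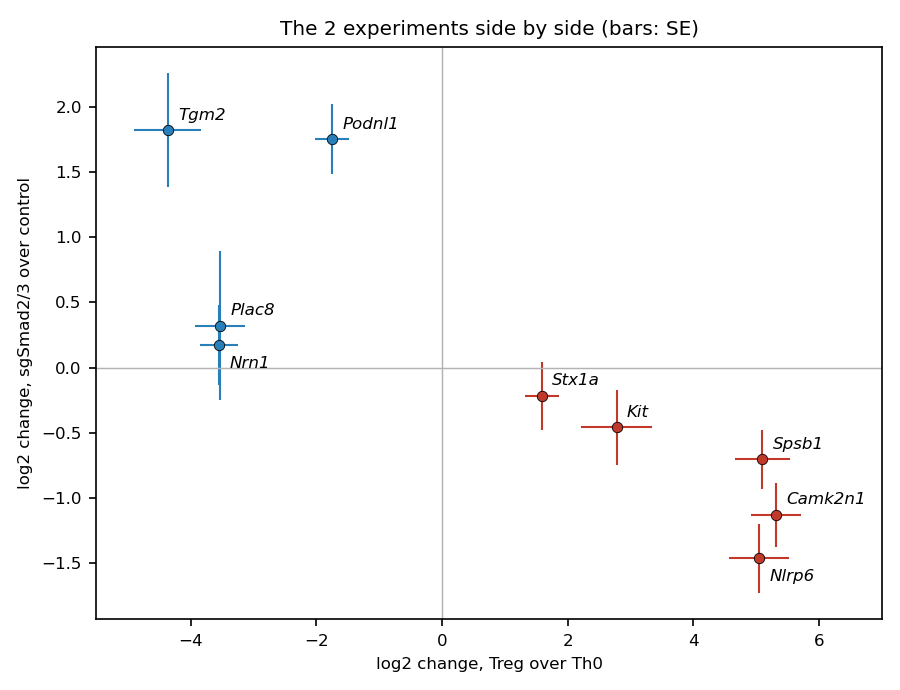
Log2 change of each member in sgSmad2/3 over control (vertical axis) and in Treg over Th0 (horizontal axis, used to choose the genes), with the standard error from limma as bars. Tgm2 and Podnl1 lie highest, at 1.82 and 1.75, and Camk2n1 and Nlrp6 lowest, at -1.13 and -1.47, while Nrn1, Plac8 and Stx1a lie at 0.17, 0.32 and -0.22.

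The guide groups also differed in markers of other cells. Myeloid markers (5 of 7 detected with a Smad3 guide, 3 of 7 without) summed to 18 and 68 CPM in sgSmad2/3, 50 and 7 CPM in sgSmad3, 2 and 7 CPM in sgSmad2, and 3 and 0 CPM in control libraries, with Itgam and Cd14 at 0 in all 8. Red cell markers summed to 70 to 144 CPM in sgSmad2/3, 32 to 87 CPM in sgSmad3, 24 to 25 CPM in sgSmad2, and 13 to 19 CPM in control libraries, with Alas2 at 0 in all 8. Endothelial and stromal markers summed to 141 to 144 CPM in sgSmad2/3, 112 to 113 CPM in sgSmad3, 111 to 135 CPM in sgSmad2, and 58 to 59 CPM in control libraries. Most of that last sum was Pecam1, which the naive CD4 T cell libraries also held (232 to 265 CPM), and Pdgfrb was at 0 in all 8. Of the collagens of that list, Col1a1 had 17 to 37 CPM in sgSmad2/3, 11 to 20 CPM in sgSmad3, 12 to 20 CPM in sgSmad2, and 3 to 6 CPM in control libraries. Col3a1 had 5 to 8 CPM in sgSmad2/3, 4 to 16 CPM in sgSmad3, 4 to 5 CPM in sgSmad2, and 1 CPM in both control libraries. The part of these cells in the results on Podnl1, Tgm2 and the others was not tested. Without the 2 libraries richest in myeloid markers (sgSmad2/3 replicate 2 and sgSmad3 replicate 1) the changes in sgSmad2/3 were -1.75 for Nlrp6, -1.16 for Camk2n1, 1.77 for Tgm2 and 1.88 for Podnl1, with 0 genes called among 10529 and 250 to 782 at an unadjusted p under 0.05. That check was chosen after seeing the data, and the sgSmad2/3 library it keeps still had 18 CPM of myeloid, 70 CPM of red cell and 141 CPM of endothelial and stromal markers.

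Other genes of the TGF-beta pathway were read from a list of 35, of which 28 were tested in either table. In sgSmad2/3 against control 2 of 28 rose and 2 of 28 fell (0.522% of all genes were called there), and the list's median change was -0.19, against 0.04 over all genes. The inhibitors of differentiation Id1 (34.5 ± 3.54 CPM, against 5.0 ± 2.83 CPM in control) and Id2 (584 ± 50.2 CPM, against 195 ± 13.4 CPM) rose by 2.65 and 1.58 on the log2 scale (limma adjusted p = 0.0021 and 0.00010). The feedback inhibitors Pmepa1 (362 ± 26.9 CPM, against 655 ± 10.6 CPM) and Skil (197 ± 6.36 CPM, against 356 ± 50.2 CPM) fell by 0.85 each (limma adjusted p = 0.013 and 0.040). With a Smad3 guide present, where 0.931% of all genes were called, 2 of 28 rose, again Id1 (1.38) and Id2 (0.82), and 2 of 28 fell, Pmepa1 (-0.62) and the integrin chain Itgae (-1.12; 19.0 ± 4.76 CPM, against 42.5 ± 10.4 CPM without one). With a Smad2 guide present, where 0.102% of all genes were called, 1 of 28, Id2, rose (0.75, limma adjusted p = 0.010). In the single guides against control limma called 0 of 28, with 6 of 28 in sgSmad3 (11.3% of all genes) and 3 of 28 in sgSmad2 (3.23% of all genes) at an unadjusted p under 0.05. The largest changes were those of Id1 (1.2, adjusted p = 0.26) and Itgae (-0.76, adjusted p = 0.34) in sgSmad3 and of Id1 (1.08) and Smurf1 (0.67) in sgSmad2 (limma adjusted p = 1.0 each). In Treg against Th0 cells, where 5.44% of all genes were called, 11 of 28 rose, among them Skil, Pmepa1, Smad7 and Ldlrad4, and 1 of 28, Id2, fell.

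Relatives of the members passed no guide test. Of 73 relatives listed (the CaM kinase II subunits, other SPSB adaptors, inflammasome genes, receptor kinases of the Kit family, syntaxins and their partners, transglutaminases and small leucine-rich proteoglycans), 30 passed the filter of the Smad table. In each of the 7 guide comparisons limma called 0 of 30 (0.0% to 0.931% of all genes). At an unadjusted p under 0.05 the counts were 0 to 5 of 30 (2.91% to 14.9% of all genes). The proteoglycan gene Dcn had a change of 2.20 in sgSmad2/3 (SE 0.80, limma adjusted p = 0.33, at 5.5 CPM, against 0.5 CPM in control). In Treg against Th0 cells, where 5.44% of all genes were called, 3 of 42 rose and 0 fell, a share near that of all genes. They were Stx2 (49.0 against 16.1 CPM, 1.62), the NLR gene Nlrc3 (160 against 71.9 CPM, 1.15) and Stx16 (102 against 65.1 CPM, 0.65), with limma adjusted p of 0.0025, 9.3e-06 and 0.0061.

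For each member the genes with the most similar profile were found over the 9 cell-type libraries, by the root mean square difference of log2(CPM + 1) after each gene's mean was taken off. Camk2n1 and Nlrp6 were each other's nearest gene, at 0.29, and shared Cx3cr1, a chemokine receptor (0.53 from Camk2n1 and 0.48 from Nlrp6). The remaining neighbours were Gm47050 for Camk2n1 (0.64) and the T cell receptor gamma segment Trgv2 for Nlrp6 (0.46). Nearest to Spsb1 were Ldlrad4, an inhibitor of TGF-beta signalling (0.69), Foxp3 (0.78) and Trib1 (0.79). Nearest to Kit were Cd101, an inhibitory surface receptor (0.52), Cd24a (0.54) and P2ry1 (0.54). Nearest to Stx1a were Ski, a corepressor of Smads (0.20), Arhgef12 (0.22) and Jund (0.22).

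For the members low with TGF-beta, nearest to Nrn1 were Isg15 (0.31), Plac8 (0.52) and Mx1 (0.63), and nearest to Plac8 were Mx1 (0.37), Ifi202b (0.45) and Nrn1 (0.52). Nearest to Tgm2, less closely, were Ly6c2 (0.98), Ifi44 (1.04) and the cytotoxic protease Gzmb (1.06), and nearest to Podnl1 were the RNA sensor Ddx58 (0.32), Tmco4 (0.32) and Lyst (0.32). The neighbours were read in each guide group against control and with either guide present against absent. Outside the members, 3 of them passed a test. The shares of all genes called were 0.522% in sgSmad2/3, 0.931% with a Smad3 guide present and 0.102% with a Smad2 guide present. The other neighbours tested did not pass, with Cx3cr1 closest (limma adjusted p = 0.064 with a Smad3 guide present). Cd101 fell by 1.21 on the log2 scale with a Smad3 guide present (14.5 ± 0.58 CPM, against 35.0 ± 3.46 CPM without one; limma adjusted p = 0.0045) and by 1.25 in sgSmad2/3 against control (adjusted p = 0.040). Gzmb rose by 2.74 in sgSmad2/3 (76 and 95 CPM, against 10 and 14 CPM in control; limma adjusted p = 0.00021), and rose also by 1.67 with a Smad2 guide present (adjusted p = 0.0049) and by 1.08 with a Smad3 guide present (adjusted p = 0.021). Trgv2 fell by 1.21 in sgSmad2/3 (27.0 ± 1.41 CPM, against 64.0 ± 11.3 CPM; limma adjusted p = 0.018). Mx1 and Ifi202b did not pass the filter of the Smad table, and Isg15 gave 0.66 (SE 0.57, limma adjusted p = 0.71) in sgSmad2/3.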

How the data were processed

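RNA was measured in 17 libraries. Per the submitters' processing notes the tools included Subread 2.0.1 and STAR 2.7.9a, and the build mm10, with no roles stated. Whether counting used strand is not given in the sources used here. Cell-type values were deposited by the authors as CPM, where 100% of nonzero values came out as whole reads within 0.01 of 1 read, and Smad values as a score, CPM rounded to whole numbers. A closing line with no gene name in the Smad table, holding up to 7.72e-05% of any column, was left out of the genes. The library totals of the Smad table were worked back from that line, taken as 1 read.

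From these, limma 3.58.1 (R 4.3.3, intensity trend) was fitted to log2(value + 1), each table in a single fit, with Benjamini-Hochberg adjustment over all genes tested, threshold 0.05. Genes were kept at 1 CPM in at least 3 cell-type libraries (14165 genes) or at 5 CPM in at least 2 Smad libraries (10737 genes). The plan took both tables for TPM and set 1 CPM for the Smad table too; on simulated data that filter gave more false calls than 5 CPM, which was taken instead, after the counts of calls at 1 CPM had been seen. Log changes understate those of low genes. Replicate pairs of the cell-type table differed by more than sampling noise (chi-square per gene 1.43 to 2.27). Named genes are the members, Smad2, Smad3, the 3 nearest genes of each member, and called or largest-change genes of 2 lists. The members and lists were chosen with earlier results of these data known. Reads carry no molecular identifiers, so floors and intervals cover counting error only. Alternatives were other pseudocounts, filters and scalings, no trend, a replicate block, each library left out, and edgeR 4.0.16 on the recovered reads. Another experiment's RNA libraries and the chromatin libraries were not analysed here.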

Additional observations from a re-analysis of the deposited data

How the results depend on the processing

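The direction of every called member held under all alternatives run, and the calls did not. Genes called between Treg and Th0 numbered 770, became 453 without limma's trend, 1066 with edgeR on the recovered reads, and 503 (without Treg replicate 2) to 883 with 1 library left out. Without a filter or with the filter at 1 CPM the calls became 0 in every guide comparison, with 964 to 2353 and 1006 to 2355 genes at an unadjusted p under 0.05 in limma. Without the trend they became 0 for sgSmad2 against control, 2 for sgSmad3 against control, 0 for sgSmad2/3 against control, 1 for sgSmad3 against sgSmad2, 2 for a Smad3 guide present and 0 for a Smad2 guide present (434 to 1358 genes at an unadjusted p under 0.05). Quantile scaling gave 2 for sgSmad2 against control, against 1. Without both libraries richest in myeloid markers, chosen after seeing the data, 0 were called in all 7 guide comparisons (250 to 782 genes at an unadjusted p under 0.05). With 1 library left out the range was 0 to 0 for sgSmad2 against control, 0 to 12 for sgSmad3 against control, 4 to 57 for sgSmad2/3 against control, 0 to 3 for sgSmad3 against sgSmad2, 9 to 260 for a Smad3 guide present (main count 100), 0 to 8 for a Smad2 guide present (11) and 0 to 0 for the departure from additivity. For sgSmad2/3 against control, 56 calls became 4 without either sgSmad2/3 library, 13 without control replicate 1 and 10 without control replicate 2. For a Smad3 guide present, the count was lower by more than 1.5 times without sgSmad2/3 replicate 1 (11) or 2 (9), sgSmad3 replicate 1 (23), sgSmad2 replicate 1 (30) and control replicate 1 (32) or 2 (47), and was 260 without sgSmad2 replicate 2. For sgSmad3 against control it became 0 without either sgSmad2/3 or control library or sgSmad3 replicate 1, and 6 without sgSmad3 replicate 2. Where a group then had 1 library, it was assumed to vary like the others. Plac8 gave no value without sgSmad3 replicate 1 or sgSmad2 replicate 2. Counts of genes without overlap stayed within 1.5 times (4159 to 4400, 7531 to 7834 and 7676 to 7886 with 1 library left out, for Treg against Th0, Treg against naive and Th0 against naive cells). The cause of these moves was not tested.

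The replicate block gave 2, 27 and 110 genes for sgSmad2, sgSmad3 and sgSmad2/3 against control, 247 for a Smad3 guide present, 18 for a Smad2 guide present and 0 for the departure. Under the block Camk2n1 passed in sgSmad3 (limma adjusted p = 0.033) and in sgSmad2/3 (0.013), and Tgm2 passed in sgSmad2/3 (0.0093) and with a Smad3 guide present (0.032). Outside the block, Camk2n1 in sgSmad2/3 also passed with a pseudocount of 4 (0.049), with quantile scaling (0.041) and without either sgSmad2 library (0.042 and 0.044), and Tgm2 with a Smad3 guide present without sgSmad2 replicate 2 (0.048). The labels tie no replicate number to a shared animal or day, and the deviations of same-numbered libraries correlated at 0.0066 to 0.0536, except sgSmad2 with control (0.352). Depth limits Plac8 in the Smad table and the members near 0 in Th0 and naive cells.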
